A study of Xenopus laevis with 12 samples.

Results

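The genes nkx2-5.S, foxc1.L and mespb.L encode transcription factors of mesoderm, and they were followed here across animal caps of Xenopus laevis embryos in which signalling had been changed by mRNA injection. They were chosen by symbol, with earlier results of these data known. The platform annotation gave them 5 probe sets of the 32475 tested, or 3 of 11303 gene symbols. The suffixes L and S mark the 2 homeologs that many genes have in this allotetraploid frog. nkx2-5.S had 3 probe sets and the other 2 genes had 1 each. The animal cap is the ectoderm of the blastula roof, which forms epidermis when cultured alone and other tissues when further signals reach it. Embryos were kept at 16 °C and injected at the 2-cell stage, and caps cut at stage 9 were cultured to stage 15, that is, the neurula.

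The 12 arrays made 4 groups of 3. Caps of the control group received mRNA for lacZ, a bacterial enzyme with no role in the embryo. A further group received kctd15, which encodes a BTB domain protein known to limit neural crest formation. The group called wnt3a+chordin received mRNA for wnt3a, a Wnt ligand, and for chordin, a secreted antagonist of BMP ligands, a combination that turns caps towards neural crest. The last group, wnt3a+chordin+kctd15, was given all 3 mRNAs by its labels. Whether replicates came from separate clutches, and how many caps were pooled per array, is not given, so p values measure the spread between these samples. In such bulk samples fewer cells of a type and less RNA per cell cannot be told apart.

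In vertebrates, Nkx2-5 is a homeodomain factor of the heart field that acts with Gata, Tbx and Hand factors on heart muscle genes. Foxc1 is a forkhead factor of presomitic, intermediate and cranial mesenchyme, where its close relative Foxc2 has overlapping roles. Mesp factors are basic helix-loop-helix proteins; in Xenopus the Mesp genes mark the presomitic mesoderm where a new segment boundary is being set. BMP signalling favours the heart field, and canonical Wnt signalling at gastrula stages opposes it.

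Levels are the deposited log2 values, so a difference of 1 is a doubling. Medians per array lay between 7.17 and 7.28, and Pearson's r between 2 replicates, taken over probe sets, was 0.971 to 0.986. The label check was mixed. For wnt3a.S the mean was 12.76 in the wnt3a+chordin group and 5.90 in the lacZ group. The chordin probe set, chrd.1.S, read 9.37 on lacZ replicate 3 and 9.08 on kctd15 replicate 3, within the range of the chordin arrays, of which the highest read 11.13 and the lowest 8.50, while the other lacZ and kctd15 arrays lay between 3.79 and 5.23. The kctd15.L probe set went against its label: its mean was 4.79 ± 1.43 (SD, n = 3) in the group labelled kctd15 and 10.96 ± 0.26 in the lacZ group, and it was likewise lower with kctd15 among the wnt3a+chordin caps. Whether the injected mRNA holds the stretch that this probe set reads is not given, and the samples are therefore called arrays labelled kctd15. Epidermis was present in the lacZ caps, where the keratin gene krt12.4.L averaged 15.02 and itln1.L 15.01. The mean level of epidermal markers was highest on the lacZ arrays, and the group means of the 3 genes were also highest there. The mean of 7 such markers, chosen after the data were seen, was 12.74, 12.98 and 12.81 on the lacZ arrays, 10.89, 10.58 and 11.63 with the kctd15 label, 10.20, 7.26 and 10.13 with wnt3a+chordin, and 7.34, 9.88 and 9.45 on the arrays labelled wnt3a+chordin+kctd15. With the kctd15 label 2 of the 7 fell at a limma adjusted p under 0.05, where 4.31% of all probe sets did. Both were tp63 homeologs, and grhl3.L went the other way, at 0.23, without passing. With wnt3a+chordin 6 of the 7 fell, where 17.1% of all probe sets did, itln1.L to a mean of 8.50. Their part in the results on the 3 genes was not tested.

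Markers of axial mesoderm separated single arrays from their groups. The mean level of 12 notochord genes was 4.69, 5.00 and 7.26 on lacZ replicates 1, 2 and 3, and 4.52, 4.34 and 6.27 on the arrays labelled kctd15. It was 5.23, 7.44 and 7.59 in wnt3a+chordin caps and 5.09, 8.20 and 6.04 in wnt3a+chordin+kctd15 caps. On lacZ replicate 3, 11 of 12 of these genes, and on kctd15 replicate 3, 10 of 12, stood more than 1 log2 unit above the mean of the other arrays of the group. On wnt3a+chordin+kctd15 replicate 2 this held for 9 of 12. In the wnt3a+chordin group 2 arrays, replicates 2 and 3, were high, each with 8 of 12 genes. Results are given below without the 3 arrays that stood alone as high in their groups, called the 3 outlying arrays. They are also given without all 5, which leaves 1 wnt3a+chordin array whose spread is taken from the other groups. Leaving out the 3 keeps wnt3a+chordin replicates 2 and 3, at 7.44 and 7.59, beside lacZ arrays at 4.69 and 5.00. Notochord levels then differ between these groups. wnt3a+chordin replicate 1, alone on the low side of its group at 5.23, was kept in both. Both choices were made after the data were seen.

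nkx2-5.S was highest in lacZ caps and lower in the other groups. On the probe set Xl2.1093.1.S1_at the lacZ arrays read 8.07, 7.76 and 9.44, the 56.6th to 78.4th percentile of their arrays. The arrays labelled kctd15 read 4.98, 4.88 and 7.96. Replicates 1 and 2 of that group lay well below every lacZ array, and replicate 3 lay inside the lacZ range. The wnt3a+chordin arrays read 4.63, 4.57 and 4.49, and the wnt3a+chordin+kctd15 arrays 4.60, 4.31 and 4.38. These last 6 arrays all lay below the lowest array labelled kctd15, within 0.32 log2 units of each other, whereas the SD was 0.90 in the lacZ group and 1.75 in the group labelled kctd15.

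The other probe sets of nkx2-5.S gave the same order of lacZ above kctd15 above both wnt3a+chordin groups. Xl2.22859.1.A1_at read 5.16, 5.57 and 6.33 in lacZ caps and 3.74, 3.63 and 4.73 on the arrays labelled kctd15. It read 3.36, 3.39 and 3.34 with wnt3a+chordin and 3.35, 3.28 and 3.51 with the wnt3a+chordin+kctd15 label. Its lacZ arrays did not overlap any other group. Xl2.48440.1.S1_s_at, whose suffix marks probes that can match more than 1 transcript, read 6.94, 7.12 and 8.28 in lacZ caps. Its arrays labelled kctd15 read 4.88, 4.84 and 6.93, so that replicate 3 reached to within 0.0061 of the lowest lacZ array. With wnt3a+chordin it read 4.73, 4.67 and 4.47, and with the wnt3a+chordin+kctd15 label 4.55, 4.75 and 4.30.

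foxc1.L was also highest in lacZ caps, but its lowest group was the one labelled kctd15. The lacZ arrays read 6.16, 5.42 and 6.21, and the arrays labelled kctd15 read 3.95, 3.71 and 3.83. No other array of any group was as low as these 3, and their SD was 0.12. Levels with wnt3a+chordin were 4.31, 4.70 and 4.83, between the other 2 groups without overlap. The wnt3a+chordin+kctd15 arrays read 4.20, 5.42 and 4.27, of which replicate 2 reached the lowest lacZ array and the others lay near the wnt3a+chordin level.

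mespb.L had the narrowest range of the 3 genes. The lacZ arrays read 4.89, 4.97 and 5.71, with the highest value on replicate 3. The arrays labelled kctd15 read 4.37, 4.13 and 4.41, and the wnt3a+chordin arrays 4.41, 4.22 and 4.28. Both groups lay below every lacZ array and overlapped each other. With the wnt3a+chordin+kctd15 label the levels were 4.21, 5.12 and 3.92, and replicate 2 lay inside the lacZ range. The mean over all 12 arrays was between 4.12 and 5.84 for the 5 probe sets, below the median of 7.26 over all probe sets. Detection calls were not used here, so whether the lower levels stood above background is not known, and a difference from such a level may understate a change.

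**Figure D1:**
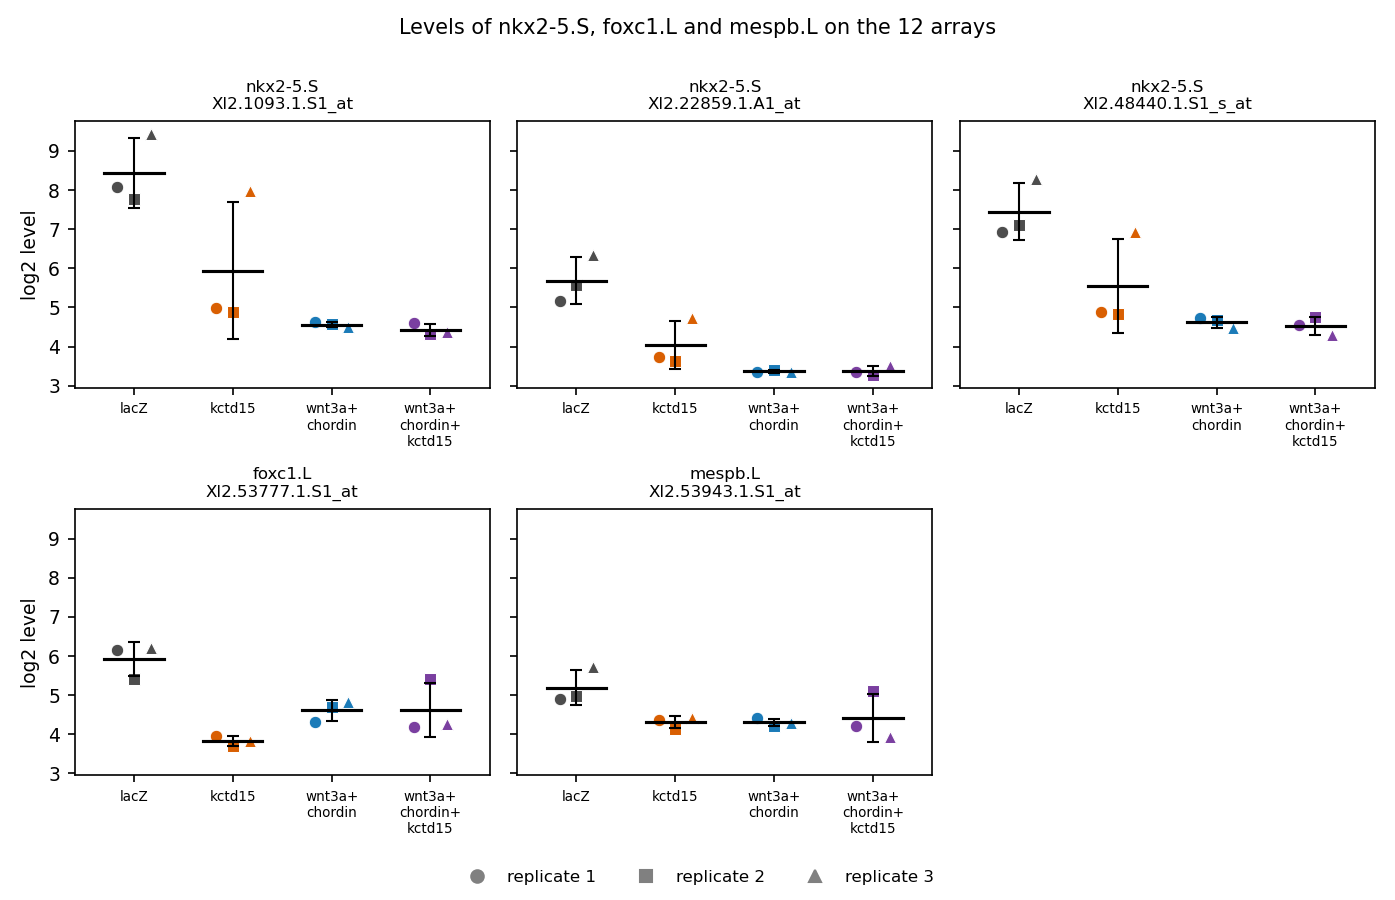
Log2 level (y axis) of each of the 5 probe sets of nkx2-5.S, foxc1.L and mespb.L on the 12 arrays, by injection group (x axis). Points are arrays, with a marker shape for each replicate number, horizontal lines are group means and bars are 1 SD (n = 3); on Xl2.1093.1.S1_at, kctd15 replicate 3 stands at 7.96, apart from 4.98 and 4.88, and foxc1.L and mespb.L stand high on wnt3a+chordin+kctd15 replicate 2, at 5.42 and 5.12.

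Caps given wnt3a+chordin were set against lacZ caps to see how the 3 genes stand when caps are turned towards neural crest. All 5 probe sets fell, where 17.1% of all probe sets fell and 41.3% passed the threshold in either direction (limma over all 12 arrays, Benjamini-Hochberg adjusted p under 0.05). Of the 5, 3 belong to nkx2-5.S, and the genes were chosen with earlier results of these data known. The count is therefore a description only. nkx2-5.S fell by 3.86 ± 0.71 (SE) on Xl2.1093.1.S1_at, which is 14.6-fold lower (limma adjusted p = 0.00138). It was 5.00-fold lower on Xl2.22859.1.A1_at (adjusted p = 0.000208) and 7.06-fold lower on Xl2.48440.1.S1_s_at (adjusted p = 0.00132). foxc1.L fell by 1.32 ± 0.32, or 2.49-fold (adjusted p = 0.00719). mespb.L fell by 0.89 ± 0.29, or 1.85-fold, with an adjusted p of 0.0327 in the limma fit. The calls of nkx2-5.S and foxc1.L held when any 1 of the 12 arrays was left out. That of mespb.L was lost without lacZ replicate 3 (a fall of 0.63, adjusted p = 0.121) and without wnt3a+chordin replicate 1, 2 or 3 (adjusted p = 0.0573, 0.0880 and 0.0748). Without the 3 outlying arrays, all 5 passed, with falls of 3.35 for nkx2-5.S on Xl2.1093.1.S1_at, 1.18 for foxc1.L and 0.63 for mespb.L. Without all 5 arrays high in notochord genes, nkx2-5.S on its 3 probe sets and foxc1.L passed, and mespb.L did not, at -0.52 (adjusted p = 0.158).

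Between the arrays labelled kctd15 and the lacZ arrays, the largest difference relative to its error was that of foxc1.L, which fell by 2.10 ± 0.32, or 4.29-fold (limma adjusted p = 0.00336). Over all probe sets 4.31% fell and 6.99% passed in either direction. Of the 5 probe sets, 2 passed in the fit without a block on replicate number, both lower. The other was Xl2.22859.1.A1_at of nkx2-5.S, which fell by 1.65 ± 0.32, or 3.14-fold (adjusted p = 0.0113). The remaining nkx2-5.S probe sets differed by -2.48 ± 0.71 (adjusted p = 0.0660) and -1.89 ± 0.52 (adjusted p = 0.0550), and mespb.L by -0.88 ± 0.29 (adjusted p = 0.110). Each of these 5 differences was negative within all 3 replicate numbers, but 3 of the 5 belong to nkx2-5.S. The share of all probe sets with such a pattern was not counted, so the signs are a description only. As the kctd15.L probe set went against its label, these directions are those of the labels. This comparison and the one above share their lacZ arrays.

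Whether the remaining nkx2-5.S probe sets passed in that comparison depended on the model and on kctd15 replicate 3. That array also lay nearest to lacZ for kctd15.L, at 6.43 against 4.17 and 3.77 on replicates 1 and 2. The same held for tp63.L, at 7.13 against 6.06 and 4.93, but not for foxc1.L, at 3.83 against 3.95 and 3.71. Whether a weaker shift on that array had a part was not tested. Without kctd15 replicate 3 the differences were -3.50 on Xl2.1093.1.S1_at (limma adjusted p = 0.00108) and -2.58 on Xl2.48440.1.S1_s_at (adjusted p = 0.00229). With the replicate number as a block, which the arrays' shared deviations called for, both also passed, at limma adjusted p = 0.0267 and 0.0303. In that fit the calls over all probe sets rose from 2269 to 4992. Without the 3 outlying arrays the differences were -2.99 (limma adjusted p = 0.000175) and -2.16 (limma adjusted p = 0.000566). They were the same without all 5 arrays. Of the 3, lacZ replicate 3 and kctd15 replicate 3 were the highest of their groups for nkx2-5.S. Leaving them out narrows its spread, so these p values are no separate support. Xl2.22859.1.A1_at lost its call without kctd15 replicate 1, at adjusted p = 0.0512. For mespb.L, leaving out wnt3a+chordin+kctd15 replicate 2, which enters this comparison through the shared variance only, left the difference at -0.88 and brought the adjusted p to 0.0331. The call of foxc1.L held without any 1 array, with differences from -2.35 to -1.96.

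Between the arrays labelled wnt3a+chordin+kctd15 and those of wnt3a+chordin, no probe set of the 3 genes passed, where 0.647% of all 32475 did. By unadjusted p under 0.05, 2110 of all probe sets and none of the 5 passed in limma. The differences were -0.13 on Xl2.1093.1.S1_at, with a 95% interval of -1.71 to 1.44, 0.01 on Xl2.22859.1.A1_at (-0.69 to 0.72) and -0.09 on Xl2.48440.1.S1_s_at (-1.24 to 1.05). For foxc1.L the difference was 0.02 (-0.70 to 0.73), and for mespb.L 0.11 (-0.54 to 0.76). The intervals of nkx2-5.S and foxc1.L leave room for changes of more than 1.5-fold in either direction, and that of mespb.L for such a change upwards. Without the 3 outlying arrays, of which wnt3a+chordin+kctd15 replicate 2 is in this comparison, the differences of foxc1.L and mespb.L were -0.38 and -0.24, and neither passed.

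**Figure D2:**
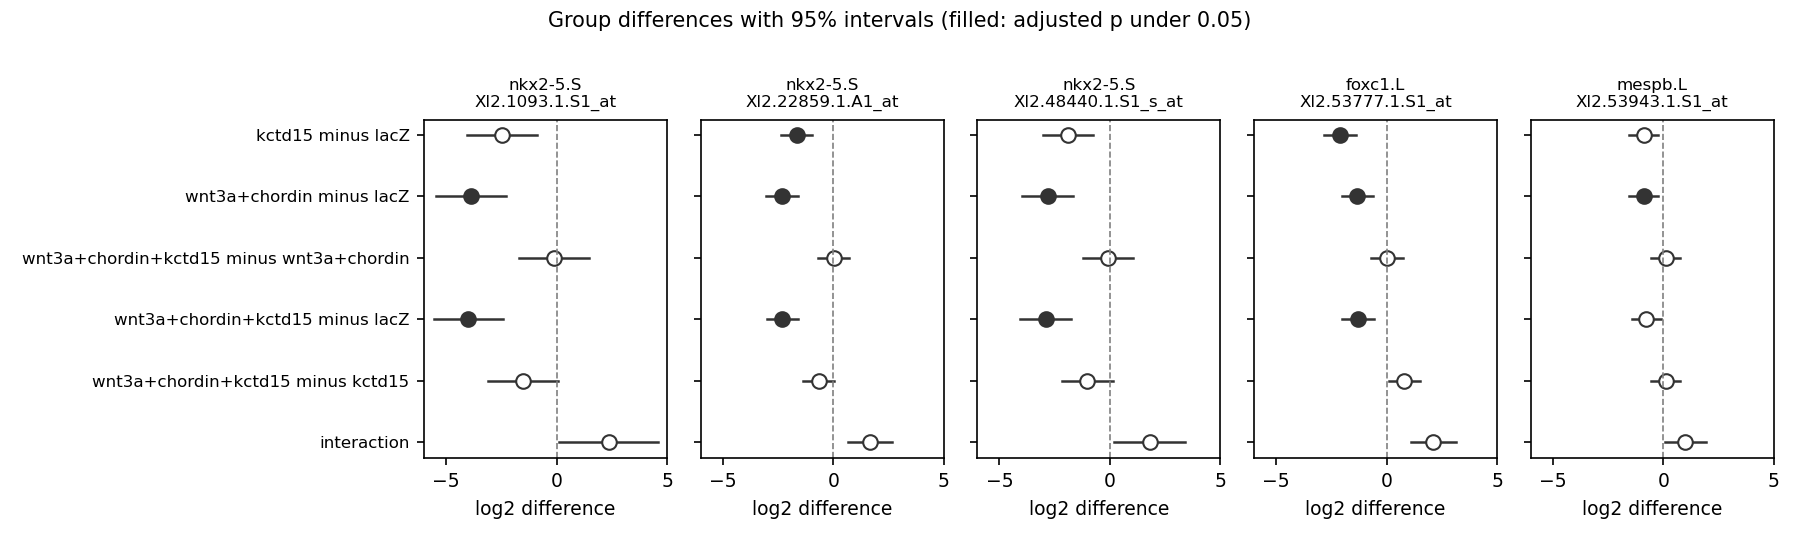
Difference in log2 level (x axis) with its 95% interval for each of the 5 probe sets (panels) in the 5 comparisons of 2 groups and the interaction (rows), from the limma fit over 12 arrays. Filled points passed an adjusted p of 0.05; all 5 lie below 0 and pass for wnt3a+chordin minus lacZ, and none passes for wnt3a+chordin+kctd15 minus wnt3a+chordin.

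The arrays labelled wnt3a+chordin+kctd15 differed from lacZ caps much as wnt3a+chordin caps did, with the same lacZ arrays as reference. Of the 5 probe sets, 4 fell, 3 of them of nkx2-5.S, where 17.6% of all probe sets fell and 41.9% passed in either direction. nkx2-5.S was 16.0-fold, 4.95-fold and 7.53-fold lower (limma adjusted p = 0.00111, 0.000216 and 0.00107). foxc1.L fell by 1.30 (adjusted p = 0.00759). For mespb.L the difference was -0.78 ± 0.29 (adjusted p = 0.0559), and without wnt3a+chordin+kctd15 replicate 2, the array at 5.12, it was -1.13 (adjusted p = 0.00411). Against the arrays labelled kctd15, none of the 5 passed, where 42.0% of all probe sets did, and by unadjusted p under 0.05 in limma 1 of the 5 and 15805 of all did. There nkx2-5.S differed by -1.51, -0.66 and -1.02 (adjusted p = 0.117, 0.126 and 0.143), and without kctd15 replicate 3 by -0.50, -0.31 and -0.33. foxc1.L was the 1 gene with a higher mean by more than its error, at 0.80 ± 0.32 (adjusted p = 0.0695), with 1.02 without wnt3a+chordin+kctd15 replicate 1 (adjusted p = 0.0427) and 0.40 without replicate 2 of that group (adjusted p = 0.236). For Xl2.22859.1.A1_at the block on replicate number gave a limma adjusted p of 0.0441, while the calls over all probe sets went from 13645 to 17677.

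Whether the difference linked to the kctd15 label depended on wnt3a+chordin was tested by the interaction, the difference between the kctd15 differences with and without wnt3a+chordin. None of the 5 probe sets passed, where 1.14% of all did, though all 5 had an unadjusted limma p under 0.05, as did 3680 of all. foxc1.L came nearest, at 2.12 ± 0.45 (limma adjusted p = 0.0597). For nkx2-5.S the interaction was 2.35, 1.66 and 1.80 (adjusted p = 0.401, 0.132 and 0.363), and for mespb.L 1.00 (adjusted p = 0.382). All 3 nkx2-5.S probe sets passed without kctd15 replicate 3, at 3.36, 2.01 and 2.49 (adjusted p = 0.0155, 0.0277 and 0.0286). They also passed without the 3 outlying arrays, at 2.91, 1.74 and 1.96 (limma adjusted p = 0.00343, 0.0179 and 0.0101). As lacZ replicate 3 and kctd15 replicate 3 were the highest of their groups for nkx2-5.S, leaving them out narrows its spread. These p values are therefore no separate support. Without all 5 arrays high in notochord genes, with 1 wnt3a+chordin array left, the interactions were 2.84, 1.75 and 1.85. The replicate block raised the calls over all probe sets from 371 to 1063, and Xl2.22859.1.A1_at alone of the 5 passed with it (limma adjusted p = 0.0384). Both groups given wnt3a+chordin were low for nkx2-5.S, at the 3.1st to 6.4th percentile of their arrays on that probe set. They were less low on the others, at percentiles of 16.3 to 19.4 on Xl2.1093.1.S1_at and 16.4 to 21.4 on Xl2.48440.1.S1_s_at. Whether a further fall could be read at such levels is not known. The nkx2-5.S interactions therefore cannot tell dependence on wnt3a+chordin from a lower limit of the readings.

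The order of the group means thus differed between the genes. For nkx2-5.S it was lacZ, kctd15, wnt3a+chordin and wnt3a+chordin+kctd15 on 2 probe sets, with the last 2 groups exchanged on Xl2.22859.1.A1_at, where their means were 3.36 and 3.38. Neither that last step nor the step from kctd15 to wnt3a+chordin+kctd15 passed the threshold. For foxc1.L the order was lacZ (5.93 ± 0.44, SD, n = 3), wnt3a+chordin+kctd15 (4.63 ± 0.69), wnt3a+chordin (4.61 ± 0.27) and kctd15 (3.83 ± 0.12), with no difference beyond the spread between the middle pair. For mespb.L the lacZ mean of 5.19 ± 0.45 stood above 4.42 ± 0.62, 4.31 ± 0.15 and 4.30 ± 0.10. The 3 lower groups, in the order wnt3a+chordin+kctd15, kctd15 and wnt3a+chordin, overlapped each other. No contrast set the kctd15 group against wnt3a+chordin, so for all 3 genes the order of these 2 groups is that of their means and was not tested.

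Relatives of the 3 genes did not all share their levels. Nkx2-3 is another homeodomain factor of the same family, active in the heart field and pharyngeal endoderm. nkx2-3.S read 10.47, 10.10 and 10.53 in lacZ caps and 5.92, 5.37 and 7.49 on the arrays labelled kctd15, so that replicate 3 was again the highest of its group. It fell by 4.11 in that comparison (limma adjusted p = 0.000454) and by 5.20 with wnt3a+chordin (adjusted p = 7.73e-06). nkx2-3.L read 10.93, 10.50 and 10.97 in lacZ caps and 7.96, 5.74 and 9.20 on the arrays labelled kctd15. It fell by 3.17 with the kctd15 label (adjusted p = 0.0144) and by 5.50 with wnt3a+chordin (adjusted p = 7.44e-05).

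Neither foxc2 nor mespa, the closest relatives of foxc1 and mespb, passed in any of the 6 contrasts. foxc2.L read 4.00, 4.16 and 7.27 in lacZ caps and 5.08, 7.64 and 6.64 with the wnt3a+chordin+kctd15 label. Its highest lacZ array was the replicate high in notochord genes, and likewise in the group labelled wnt3a+chordin+kctd15. mespa.L, which the assembly 10.1 annotation places near mespb.L with mesp2.L between them, read 3.89, 4.11 and 5.75 in lacZ caps and 3.88, 6.22 and 3.61 with the wnt3a+chordin+kctd15 label. mespa.S read 3.78, 4.25 and 6.31, and 3.26, 6.54 and 3.95, in the same groups. The arrays that were high for mespa are those on which mespb.L was highest in its group, at 5.71 and 5.12. A probe set shared by the entries foxc1.S and foxc1-A had group means from 4.43 to 4.88, and none of its differences passed. The homeologs nkx2-5.L and mespb.S were also sought, and no tested probe set carried either as its only symbol.

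**Figure D3:**
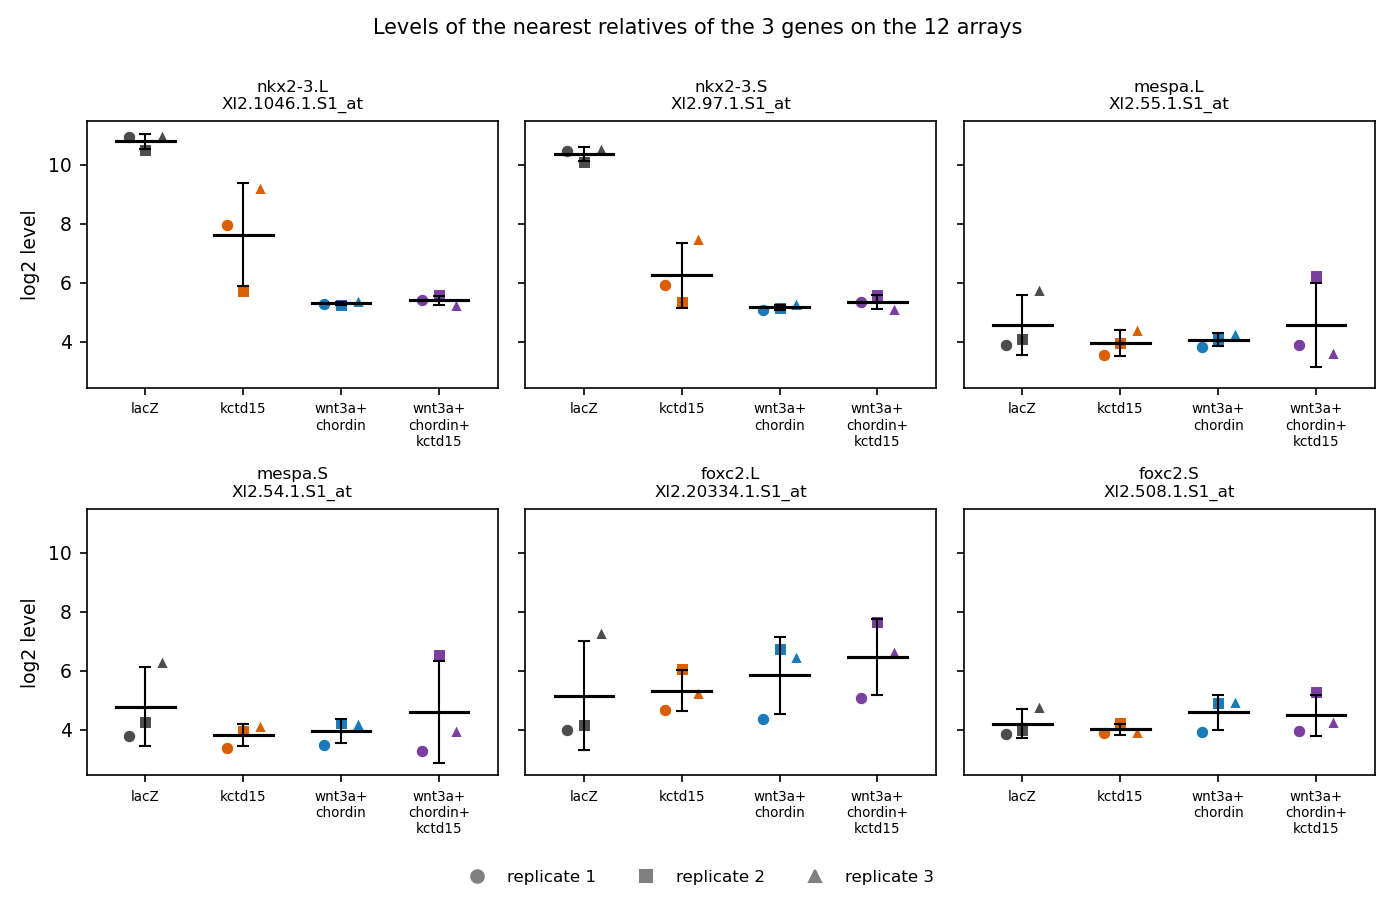
Log2 level (y axis) of nkx2-3.L, nkx2-3.S, mespa.L, mespa.S, foxc2.L and foxc2.S on the 12 arrays, by injection group (x axis), 1 probe set each. Points are arrays, lines are group means and bars are 1 SD (n = 3); nkx2-3.L and nkx2-3.S lie above 10 on every lacZ array, and mespa.L and mespa.S are highest on lacZ replicate 3 and on wnt3a+chordin+kctd15 replicate 2.

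Among 22 genes for regulators of the heart field, some fell and others rose with the kctd15 label. nkx2-5.S, which stands in the list with Xl2.1093.1.S1_at, did not pass. In this list, counted with 1 probe set per gene, 6 genes rose and 6 fell, where 2.68% and 4.31% of all probe sets did, and the median difference was -0.23 against 0.04 over all probe sets. Homeologs count separately in each list, so that the 22 come from 14 base symbols and are not 22 independent genes. The 6 that rose were 5 genes of the Gata4, Gata5 and Gata6 zinc finger factors and hand1.L. gata5.S read 5.70, 5.55 and 6.65 in lacZ caps and 10.66, 11.25 and 11.50 on the arrays labelled kctd15, a rise of 5.17 (limma adjusted p = 1.5e-05). gata6.S rose by 3.64 (adjusted p = 0.000776) and gata6.L by 3.24 (adjusted p = 0.000448). Those that fell were both nkx2-3 homeologs, isl1.S, hand2.S, mef2c.L and tbx1.S. isl1.S encodes a LIM homeodomain factor of heart progenitors and fell by 2.08 on the probe set used in the list, Xl2.55881.1.S1_at, and hand2.S, for a basic helix-loop-helix factor, fell by 2.02 (adjusted p = 0.0301). Neither these counts nor the names in them were independent of earlier results on these arrays.

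In wnt3a+chordin caps 11 of the 22 heart field genes fell and none rose, where 17.1% of all probe sets fell and 24.2% rose, and the median was -0.78 against 0.11. On the probe sets used in the list, the falls were largest for nkx2-3.L, nkx2-3.S, hand2.S (by 3.96, limma adjusted p = 9.15e-05) and nkx2-5.S. gata6.L, gata5.L and gata5.S were also among them, at differences of -2.14, -1.09 and -1.09. Between wnt3a+chordin+kctd15 and wnt3a+chordin none of the 22 passed the threshold in limma, against 2 at an unadjusted p under 0.05. Of all probe sets 0.647% passed there after adjustment and 6.497% before it. The block on replicate number, or leaving out wnt3a+chordin+kctd15 replicate 2, gave 1 call there. In this comparison the calls over all probe sets went from 210 to 443 with the block and to 196 without that array. Of 11 genes of heart muscle itself, 0 passed with the kctd15 label, also at an unadjusted limma p under 0.05. Over all probe sets 6.99% passed after adjustment and 19.5% before it. With wnt3a+chordin the troponin gene tnnc1.L was the 1 of the 11 that passed, where 41.3% of all did, and it rose by 0.97 (limma adjusted p = 0.0208). It also stands in the muscle list described below, so its rise is not particular to heart muscle genes. Its call was lost without wnt3a+chordin replicate 1 or 2 or lacZ replicate 2. tnnt2.L, for a cardiac troponin, had group means from 3.41 to 3.50.

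The list of 27 regulators of presomitic and somitic mesoderm holds foxc1.L and mespb.L. With the kctd15 label, foxc1.L fell and dll1.L, for a Notch ligand, rose by 2.65 (limma adjusted p = 0.00136), and 25 did not pass. Over all probe sets 6.99% passed, so the count is no result about the list. The median of the list was -0.65 against 0.04 over all probe sets. On lacZ replicate 3, 16 of the 27 stood more than 1 log2 unit above the other lacZ arrays. The part of that array in the median was not tested. The replicate block raised the 2 calls to 4, while it raised the calls over all probe sets from 2269 to 4992. The higher count is therefore no result about this list. dll1.L read 9.21, 9.87 and 10.45 in lacZ caps and 12.76, 12.59 and 12.13 on the arrays labelled kctd15. In wnt3a+chordin caps 3 of the 27 fell, namely hes7.1.L, foxc1.L and mespb.L, and 5 rose, where 17.1% of all probe sets fell and 24.2% rose, so that neither count stood above the share over all. pcdh8.L, for the protocadherin of the segmenting paraxial mesoderm, read 4.63, 4.18 and 5.99 in lacZ caps and 9.53, 10.98 and 9.57 with wnt3a+chordin, a rise of 5.09 (adjusted p = 6.35e-05). lfng.L and lfng.S, which encode a glycosyltransferase that modifies Notch, rose by 1.91 and 1.61 (adjusted p = 0.00304 and 0.000759). hes7.1.L, for a Hairy-related repressor, fell by 1.97 (adjusted p = 0.0286). Between wnt3a+chordin+kctd15 and wnt3a+chordin none of the 27 passed the threshold in limma, against 2 at an unadjusted p under 0.05. Of all probe sets 0.647% passed there after adjustment and 6.497% before it, so neither count is a result about the list.

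The presomitic list moved with the notochord list on single arrays. On lacZ replicate 3, 16 of 27 genes exceeded the mean of lacZ replicates 1 and 2 by more than 1 log2 unit, and on wnt3a+chordin+kctd15 replicate 2, 21 of 27 exceeded that of replicates 1 and 3. On kctd15 replicate 3 it was 5 of 27. The mean of the 27 was 5.90, 6.30 and 7.42 in lacZ caps, 5.63, 5.69 and 6.28 with the kctd15 label, 5.72, 7.00 and 6.85 with wnt3a+chordin, and 6.03, 7.82 and 6.52 with the wnt3a+chordin+kctd15 label. A muscle list of 27 genes had means of 4.97, 4.83 and 6.97 in lacZ caps and 5.05, 7.31 and 5.88 with the wnt3a+chordin+kctd15 label. mespb.L was the highest of its group on lacZ replicate 3 and on wnt3a+chordin+kctd15 replicate 2, and foxc1.L on both too, though lacZ replicate 1 lay only 0.05 lower. nkx2-5.S was highest of its group on lacZ replicate 3 and kctd15 replicate 3, and on wnt3a+chordin+kctd15 replicate 2 it was the lowest of its group on 2 probe sets and the highest, at 4.75, on Xl2.48440.1.S1_s_at. The part of mesoderm content in these values was not tested beyond leaving the arrays out.

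**Figure D4:**
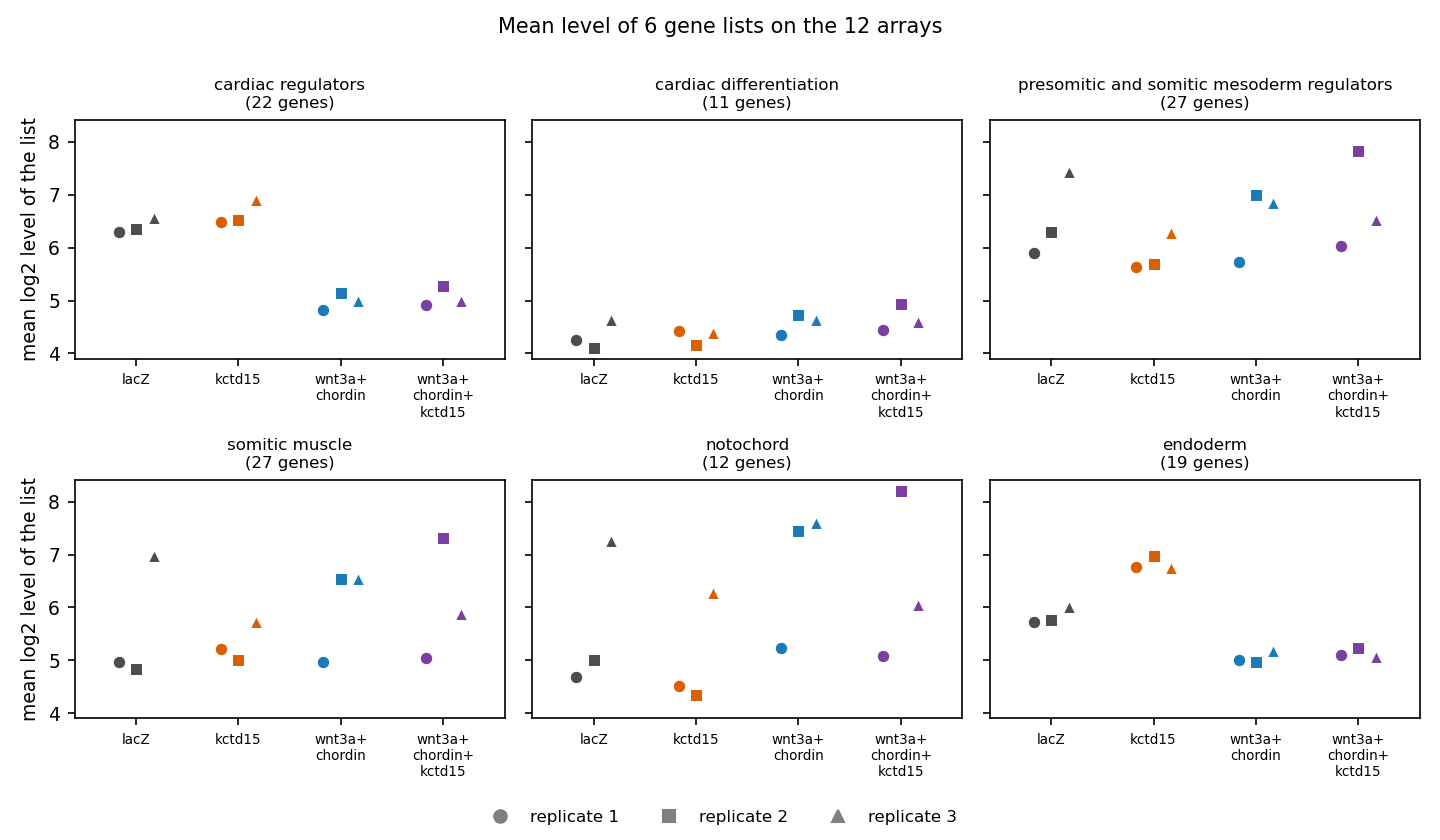
Mean log2 level (y axis) of the genes of each list on each of the 12 arrays, by injection group (x axis). Points are arrays; the notochord list stands at 7.26 on lacZ replicate 3 against 4.69 and 5.00 on the other lacZ arrays, and the cardiac regulators lie between 6.29 and 6.89 without wnt3a+chordin and between 4.82 and 5.28 with it.

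The remaining lists give the setting. Over all probe sets 2.68% rose and 4.31% fell with the kctd15 label, and 24.2% rose and 17.1% fell with wnt3a+chordin; a count near these shares is no result about a list. With the kctd15 label, 1 of 28 early mesoderm genes rose, and 1 of 20 intermediate and lateral mesoderm genes rose and 2 fell. Of 27 muscle genes 0 passed, with 1 at an unadjusted limma p under 0.05, where 19.5% of all probe sets were. Of 12 notochord genes 1 fell. The intermediate and lateral genes were hand1.L, which rose, and foxc1.L and hand2.S, which fell, all counted in lists above. Of 19 endoderm genes 6 rose and 1 fell, and 5 of these 6 are the Gata genes above. Of 20 neural crest genes 3 fell, and of 28 BMP target genes 4 rose and 2 fell. With wnt3a+chordin, 3 early mesoderm genes rose, 3 intermediate and lateral mesoderm genes fell, 2 muscle genes rose and 1 fell, and 3 notochord genes rose. The intermediate and lateral genes were hand2.S, hand2.L and foxc1.L, again counted in lists above. Of the muscle genes that rose, tnnc1.L was also counted above among genes of heart muscle. In that comparison 2 endoderm genes rose and 6 fell, 13 neural crest genes rose and 2 fell, and 5 BMP target genes rose and 18 fell. szl.L, a BMP target that encodes the secreted protein sizzled, fell by 9.08 (limma adjusted p = 6.78e-05). Between wnt3a+chordin+kctd15 and wnt3a+chordin, where 0.647% of all probe sets passed, the neural crest list was the 1 list of the 10 with members past the threshold, with 1 higher and 5 lower. Single arrays moved several of these small counts by over 1.5 times when left out. With the kctd15 label the neural crest calls ran from 1 without kctd15 replicate 1 to 6 without lacZ replicate 3, and were 5 without wnt3a+chordin+kctd15 replicate 1. The BMP target calls ran from 1 without kctd15 replicate 2 to 10 without wnt3a+chordin+kctd15 replicate 2, and were 2 or 3 without lacZ replicate 1, lacZ replicate 2 or kctd15 replicate 1. The notochord call was lost in 5 of the 12 fits, those without lacZ replicate 1 or 3, kctd15 replicate 1 or 2, or wnt3a+chordin replicate 3. With wnt3a+chordin, early mesoderm had 5 calls without kctd15 replicate 3, muscle had 1 without wnt3a+chordin replicate 1, and notochord had 1 without lacZ replicate 1 or 2. The 6 neural crest calls between wnt3a+chordin+kctd15 and wnt3a+chordin became 1 or 3 without any array but lacZ replicate 3 or wnt3a+chordin+kctd15 replicate 3, and intermediate and lateral mesoderm and endoderm gained 1 call each without wnt3a+chordin+kctd15 replicate 2 or with the block. With the block, early mesoderm had 3 calls with the kctd15 label and 5 with wnt3a+chordin, and notochord and muscle had 2 and 1 with the kctd15 label. The block also raised the calls over all probe sets, from 2269 to 4992 with the kctd15 label and from 13421 to 17510 with wnt3a+chordin. These gains are therefore not particular to the lists.

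Genes with the most similar profile were sought by the root mean square distance over the 12 arrays, with each profile centred on its own mean, among probe sets of 10820 genes. Profiles were not scaled, so the distance takes in the size of a change as well as its order over the groups. For nkx2-5.S (Xl2.1093.1.S1_at) isl1.S was nearest at 0.50 log2 units, closer than the gene's own other probe sets at 0.52 and 0.85. This isl1.S probe set, Xl2.48014.1.A1_at, is not the one used in the heart field list, and averaged 7.06 in lacZ caps, 4.71 with the kctd15 label, 3.13 with wnt3a+chordin and 3.27 with the wnt3a+chordin+kctd15 label. It was followed by c2orf73.L (0.73), cat2.L (0.75), nkx2-3.S (0.76) and jak2.L (0.79). For comparison, nkx2-5.S itself varied about its mean by 1.80.

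For foxc1.L, which varied by 0.83, the nearest were sema5b.S (0.28), hunk.S (0.34), amotl1.L (0.39), phldb1.S (0.40) and tmem115.S (0.41). sema5b.S, for a semaphorin, averaged 6.99 in lacZ caps and 4.73, 5.82 and 5.68 in the kctd15, wnt3a+chordin and wnt3a+chordin+kctd15 groups. For mespb.L, which varied by 0.49, they were ntmt1.L (0.27), sema3fl.L (0.27), nhs.L (0.28), erg28.L (0.29) and cetn3.L (0.30). A profile as flat as that of mespb.L lies near many others by this measure. Between the members, foxc1.L and mespb.L were 0.50 apart, and nkx2-5.S was 1.49 from each on Xl2.1093.1.S1_at, 1.04 and 0.98 on Xl2.48440.1.S1_s_at, and 0.81 and 0.72 on Xl2.22859.1.A1_at. These distances describe 12 arrays that share 4 group means, and carry no test.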

How the data were processed

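Total RNA of animal caps was labelled with biotin for a 3' Affymetrix array, per the labels' protocols, with 1 array per sample. The deposited values are log2 levels per probe set made with Partek, per the submitters' processing notes. Which version, background step, summarisation and normalization it used is not given in the sources read here. The values ran from 2.38 to 15.58. For arrays no depth can be given, and their number limits the precision. Of 32635 probe sets, 96 controls and 64 reporters were left out. The platform annotation gave 1 symbol to 15495 probe sets and several to 279, and symbols were updated through the Xenopus laevis annotation of assembly 10.1.

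Groups came from the sample titles. All 12 arrays were fitted with 4 group means in limma 3.58.1 under R 4.3.3 (lmFit, contrasts.fit, eBayes) on the log2 values as deposited, in 6 contrasts with two-sided p values adjusted by Benjamini and Hochberg over all 32475 probe sets. Same-numbered arrays deviated together from their group means, with correlations of 0.18 to 0.71 over 18 pairs. Over 36 pairs with different numbers they were -0.51 to 0.10. Deviations cancel within a group, so these lower values follow from the higher ones and are no separate evidence of pairing. The main fit and its p values have no block on replicate number. The numbers were taken as pairs in a fit with a replicate block, which is given where it changes a call. Alternatives were that block, quantile normalization, median centring, weights for arrays, a trended variance prior, removal of dim probe sets, 1 probe set per gene, only the groups compared, and each array left out in turn, with 2 sets of arrays high in notochord genes left out as a later addition.

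The members and the 10 gene lists were chosen with earlier results of these data known. Named genes are the members, their relatives, the injected genes, up to 4 list members past the threshold with the largest difference per list and contrast (or the one with the smallest p where none passed), and the 5 genes nearest in profile. Other names were chosen after their values were seen. Scripts were tested on simulated data.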

Additional observations from a re-analysis of the deposited data

Results flagged for a closer look

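For 6 genes of the lists, the difference linked to the kctd15 label differed between caps with and without wnt3a+chordin, by the limma interaction over all 32475 probe sets, where 1.14% passed. The lists share genes and were chosen with earlier results of these data known. How many distinct genes they hold is not given, so the 6, with both gata5 homeologs among them, cannot be set against that share. For nkx2-3.S the interaction was 4.28 (limma adjusted p = 0.0104): the kctd15 difference was -4.11 without wnt3a+chordin and 0.18 with it, where both groups lay near 5.2. For gata5.S it was -5.04 (adjusted p = 0.000852) and for gata5.L -2.79 (adjusted p = 0.0135). These 3 calls held in all 12 fits with 1 array left out. dll1.L had -2.43 (adjusted p = 0.0434), the neural crest gene sox9.L -3.62 (adjusted p = 0.0232) and the BMP target tbx3.L 2.94 (adjusted p = 0.0453), and their calls were lost in 9, 7 and 9 of those fits. No explanation was weighed.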

How the results depend on the processing

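Each of the 30 member results was recomputed under the alternatives, where they could be fitted. Under a variance prior with trend all 30 kept direction and side of the threshold, and under 1 probe set per gene all 18 did. The replicate block brought nkx2-5.S past the threshold with the kctd15 label on Xl2.1093.1.S1_at (-2.48, adjusted p = 0.0267) and Xl2.48440.1.S1_s_at (-1.89, 0.0303), and Xl2.22859.1.A1_at for wnt3a+chordin+kctd15 minus kctd15 (-0.66, 0.0441) and the interaction (1.66, 0.0384); it changed no other member call. Array weights did so for the first pair (-2.36 and -1.84), quantile normalization for mespb.L in wnt3a+chordin+kctd15 minus lacZ (-0.78), and fitting only the groups compared took Xl2.22859.1.A1_at out with the kctd15 label (-1.65, adjusted p = 0.0740). The 3 outlying arrays were lacZ replicate 3, kctd15 replicate 3 and wnt3a+chordin+kctd15 replicate 2. Without them, nkx2-5.S gained calls with the kctd15 label (-2.99 and -2.16) and in its interactions (2.91, 1.74 and 1.96). mespb.L gained its call in wnt3a+chordin+kctd15 minus lacZ (-0.87). For nkx2-5.S the first 2 of these arrays were the highest of their groups, so its gains come with a narrowed spread and are no separate support. Signs turned in uncalled differences: under median centring for wnt3a+chordin+kctd15 minus wnt3a+chordin on Xl2.22859.1.A1_at (-0.0048) and foxc1.L (-0.0020), and without the 3 arrays for that contrast of foxc1.L (-0.38) and mespb.L (-0.24) and for mespb.L against kctd15 (-0.19). Without these and wnt3a+chordin replicates 2 and 3, 1 wnt3a+chordin array is left, and it is assumed to vary like the other groups. The nkx2-5.S calls with the kctd15 label were gained (-2.99 and -2.16), as was mespb.L for wnt3a+chordin+kctd15 minus lacZ (-0.87), and mespb.L lost its call with wnt3a+chordin (-0.52). Uncalled signs turned for wnt3a+chordin+kctd15 minus wnt3a+chordin of foxc1.L (-0.075) and mespb.L (-0.35) and for mespb.L against kctd15 (-0.19). None of the 5 probe sets has a mean above the median of all, so the setting without dim probe sets gives them no value, and the interaction draws on all 4 groups, so fitting only the groups compared does not alter it.

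With 1 array left out, nkx2-5.S ranged, on Xl2.1093.1.S1_at, Xl2.22859.1.A1_at and Xl2.48440.1.S1_s_at in turn, from -3.50 to -1.95, -1.998 to -1.33 and -2.58 to -1.47 with the kctd15 label and from 1.82 to 3.36, 1.34 to 2.01 and 1.38 to 2.49 in the interaction. For wnt3a+chordin+kctd15 minus wnt3a+chordin, Xl2.22859.1.A1_at ranged from -0.052 to 0.065, Xl2.48440.1.S1_s_at from -0.20 to 0.023, foxc1.L from -0.38 to 0.23 and mespb.L from -0.24 to 0.36. foxc1.L ranged from 0.40 to 1.02 for wnt3a+chordin+kctd15 minus kctd15, and mespb.L from -0.24 to 0.36 there, -1.03 to -0.63 with the kctd15 label, -1.04 to -0.63 with wnt3a+chordin and -1.13 to -0.52 for wnt3a+chordin+kctd15 minus lacZ.

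Over all probe sets, the calls with the kctd15 label were 2269 and the block gave 4992, with 1312 to 2364 when 1 array was left out. For wnt3a+chordin+kctd15 minus wnt3a+chordin, 210 calls became 443 with the block, 136 without dim probe sets, 49 with only the groups compared and 67 to 200 with 1 array left out. The 371 interaction calls became 1063, 202 and 134 to 599 with the block, without dim probe sets and with 1 array left out. Without the 5 arrays the calls were 1290 with the kctd15 label, 7189 with wnt3a+chordin (13421 in the full fit), 60 for wnt3a+chordin+kctd15 minus wnt3a+chordin and 33 in the interaction. Of 1310 recomputed list counts, 1137 lay within 1.5 times the main count. The cause of these changes was not tested.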
